A study of Mus musculus with 8 samples.

Results

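The 10 genes described here encode proteins of the nucleolus, namely Ncl, Npm1, Fbl, Nop56, Nop58, Dkc1, Gnl2, Gnl3, Polr1a and Polr1b. They were chosen by name, as genes of small nucleolar ribonucleoprotein particles (snoRNPs) and of RNA polymerase I, and all 10 were found among the 55487 genes of the count table. The choice was made with earlier results of these data known. Muscle stem cells (MuSCs) of aged male C57BL/6JRj mice were sorted by FACS as CD31-, CD11b-, CD45-, Sca1-, CD34+ and integrin α7+ cells and cultured for 72 hours in growth medium. Read by the pool numbers of the labels, the cells of 8 mice made 4 pools. Each pool gave a library with vehicle (1% DMSO) and a library with nicotinamide and pyridoxine together (NAM/PN, labelled as 1 mM for the combination). The study's methods give 23 to 25 months for its aged mice and 23 to 24 months for those of its MuSC culture assay, and the labels of these libraries say only that the mice were old. Both groups were of the same age, sex, strain and culture, and they differed in the treatment. The n of 4 in each group counts pools and not single mice, and libraries of freshly isolated or young MuSCs were not analysed here.

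The nucleolus is where ribosomes are built. RNA polymerase I transcribes the ribosomal DNA there into a long precursor. The snoRNPs, guided by small nucleolar RNAs (snoRNAs), methylate or pseudouridylate it, and assembly factors and GTPases act on the maturing subunits. Box C/D snoRNPs hold the methyltransferase fibrillarin (Fbl) with the scaffold proteins NOP56 and NOP58, and H/ACA snoRNPs hold the pseudouridine synthase dyskerin (Dkc1). MuSCs are quiescent in resting muscle, and their return to the cell cycle in culture brings growth and ribosome production with it.

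Several of these genes carry snoRNAs in their own introns, so that the gene for a snoRNP protein also encodes RNAs that such particles hold. GENCODE M21 places 16 annotated snoRNA genes within 5 of the 10 genes, with 5 in Nop56, 4 in Nop58, 3 in Ncl, 3 in Gnl3 and 1 in Dkc1, all on the strand of their host. Of the 16, 6 carry an exact C box (TGATGA) starting within the first 20 bases and an exact D box (CTGA) starting within the last 15 bases, the motifs that bind the box C/D proteins. They are 4 of the 7 with a Snord name, the name of box C/D snoRNAs, and 2 without one, Gm24148 and Gm26287. The same search of the transcript strand finds both boxes in 69.4% of the 98 annotated transcripts with a Snord name and in 20.3% of all 1507 snoRNA transcripts, H/ACA snoRNAs included. The 4 named ones are shown because they tie the protein genes to the particles, with the C box and the D box in capitals, 5′ to 3′, in the coordinates of GRCm38.
Snord82, in Ncl, chr1:86356261-86356330, minus strand: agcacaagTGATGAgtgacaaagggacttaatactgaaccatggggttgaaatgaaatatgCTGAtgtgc
Snord110, in Nop56, chr2:130275506-130275573, plus strand: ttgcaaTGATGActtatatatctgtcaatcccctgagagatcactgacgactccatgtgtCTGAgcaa
Snord11, in Nop58, chr1:59704790-59704873, plus strand: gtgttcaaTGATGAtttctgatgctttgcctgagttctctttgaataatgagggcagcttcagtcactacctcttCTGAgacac
Snord69, in Gnl3, chr14:31014287-31014366, minus strand: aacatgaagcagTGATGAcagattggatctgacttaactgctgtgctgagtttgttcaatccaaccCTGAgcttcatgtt
The libraries were primed on poly(A) and do not measure such RNAs. The 16 snoRNA genes held 33 counts over all 8 libraries, and 12 of them held 0, so the values below are those of the host messenger RNAs and say nothing of the snoRNAs.

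Library totals were 6472484 to 10163101 counts, and 3 counts, taken as the limit of detection, were worth 0.295 to 0.464 CPM (counts per 1000000 counts of the library), which covers counting error only. Levels are given as CPM after TMM scaling, and since the 3′ ends of transcripts were counted, they are compared between libraries and not between genes. Markers of the sorted cells were present in every library, with Pax7 at 196 ± 36.2 CPM (SD, n = 4) in vehicle and 173 ± 50.3 CPM under NAM/PN. The summed level of 12 MuSC markers was lower with NAM/PN, at 3120 to 3540 CPM in vehicle and 2458 to 3099 CPM under NAM/PN. Of the 10 of them that were tested, 9 had a log2 fold change below 0, with a median of -0.30, and 0 were called. Markers of myogenic differentiation were lower with NAM/PN, with 9 of 12 genes past the test and a sum of 1688 to 3251 CPM in vehicle and 267 to 754 CPM under NAM/PN. Of the immune markers 6 of 7 were at 0 in all libraries (Ptprc, Adgre1, Itgam, Lyz2, Cd3e and Cd79a), 3 of 6 endothelial markers (Tie1, Emcn and Flt1) were at 0 and their sum was at most 7.25 CPM, and the mural markers summed to between 33.4 and 93.4 CPM. Fibro-adipogenic markers summed to 153 to 207 CPM in vehicle and 57.0 to 1123 CPM under NAM/PN, with Pdgfra, Lum and Dpt at 0. Of these 8 markers 2 were tested, and they went opposite ways. The lower, at a log2 fold change of -1.17, was called, with groups that did not overlap. The higher, at 4.97, was not called. The part of these differences in the values of the nucleolar genes was not tested. In bulk RNA, a change in the share of cells of a kind and a change in the RNA of each cell cannot be told apart.

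None of the 10 genes passed the threshold between NAM/PN and vehicle, an adjusted p of 0.05 over 12060 tested genes in edgeR's quasi-likelihood test, and Npm1, Nop58 and Gnl2 came nearest to a shift of the whole group. All 10 passed the filter on low counts. Over all tested genes, 1.28% were called, 0.282% higher and 0.995% lower with NAM/PN. The count of members called was also 0 with DESeq2 and with limma voom. The fitted log2 fold changes lay between -0.06 and 0.52 with a median of 0.15, against a median of -0.0022 over all tested genes, and 7 of the 10 were above 0, as were 49.8% of all tested genes. The median of the 10 was 0.26 without vehicle replicate 1 or NAM/PN replicate 4, 0.25 without vehicle replicate 3 and 0.090 without pool 2. Before adjustment, 4 of the 10 (Npm1, Nop56, Nop58 and Gnl2) were higher at p under 0.05, which 3.96% of all tested genes were, and 0 were lower, against 5.32%. That count of 4 was 0 without vehicle replicate 2, 1 without NAM/PN replicate 1 or vehicle replicate 4, and 2 without NAM/PN replicate 2. In 3 of the 10 (Npm1, Nop58 and Gnl2) every NAM/PN library was above every vehicle library, as for 2.79% of all tested genes, and in 0 every NAM/PN library was below, as for 4.42%. The same 3 were the members higher in all 4 pools, against 8.49% of all tested genes.

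**Figure D1:**
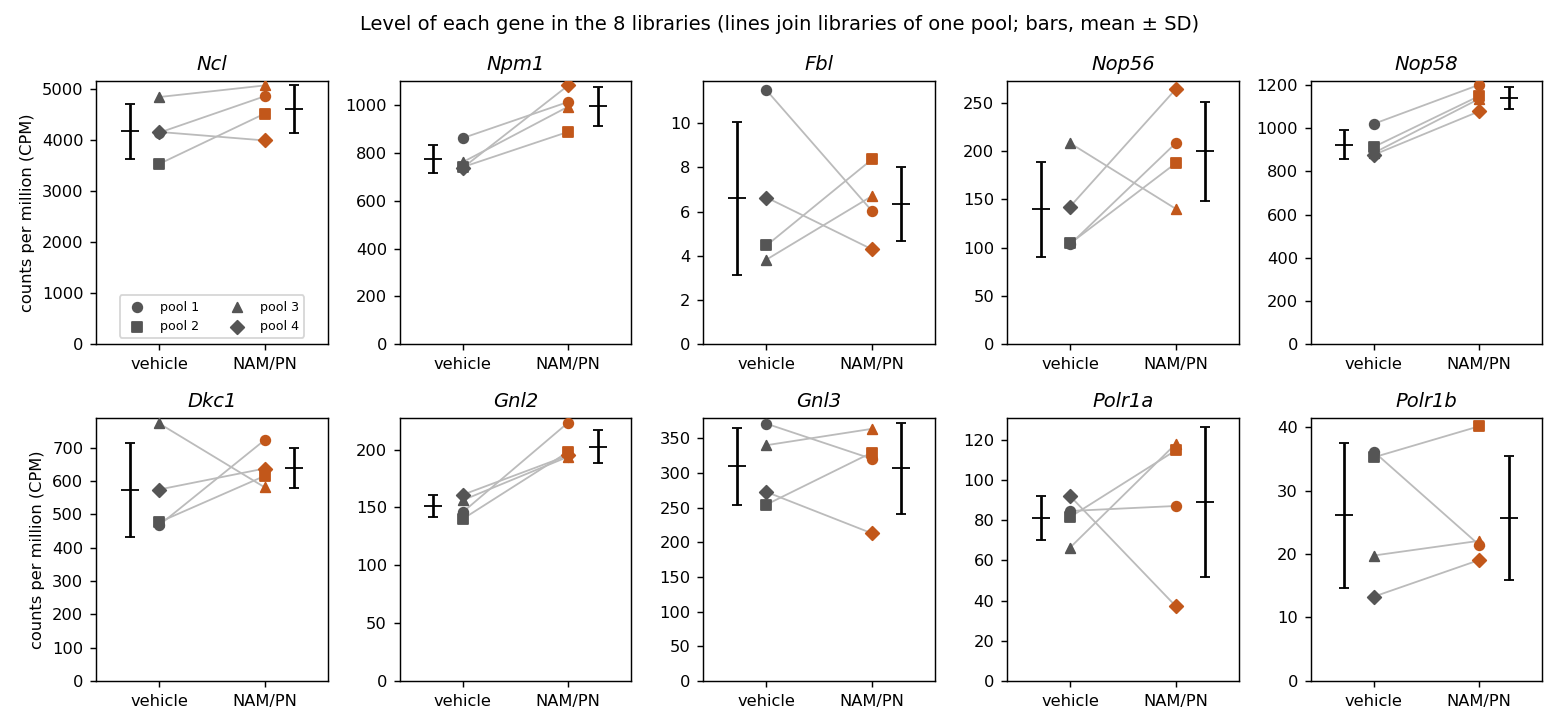
Level of each of the 10 genes in CPM (vertical axis, from 0 in each panel) in the vehicle (grey) and NAM/PN (orange) libraries, with lines joining libraries of a pool and bars giving the mean ± SD of 4 libraries. The groups are apart for Npm1, Nop58 and Gnl2 and overlap for the other 7 genes.

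Of the scaffold proteins of box C/D snoRNPs, Nop58 differed by nearly the same ratio in all 4 pools and Nop56 did not. Nop58 had 1020, 913, 885 and 877 CPM in the vehicle libraries of pools 1 to 4 and 1201, 1149, 1136 and 1078 CPM in their NAM/PN libraries. The lowest NAM/PN library was above the highest vehicle library, and the ratio of NAM/PN to vehicle within a pool was 1.18, 1.26, 1.28 and 1.23. The means were 924 ± 65.9 and 1141 ± 50.7 CPM (SD, n = 4), a log2 fold change of 0.30 with an SE of 0.14 that did not pass the adjustment in edgeR (adjusted p = 0.480). Its 95% interval ran from 0.02 to 0.59.

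Nop56, the partner of NOP58 on the snoRNA, had the largest fitted difference of the 10 genes on its own counts with all libraries, and a wide spread. Vehicle libraries held 103, 104, 208 and 142 CPM, and NAM/PN libraries held 208, 187, 140 and 264 CPM. Pools 1, 2 and 4 were 2.01-fold, 1.79-fold and 1.85-fold higher with NAM/PN and pool 3 went the other way, at a ratio of 0.674, so the groups overlapped. The log2 fold change was 0.52 with an SE of 0.24 (edgeR, adjusted p = 0.497). Vehicle replicate 3, the highest vehicle library for Nop56, was also the library with the largest share of ribosomal RNA counts, 18.7% against 5.22% to 11.6% in the other 7. Without it the log2 fold change was 0.77 (adjusted p = 0.119), and without either library of pool 3 it was 0.91 (adjusted p = 0.0552). It was lower without vehicle replicate 1 (0.40), vehicle replicate 2 (0.40), NAM/PN replicate 4 (0.35, adjusted p = 0.719), pool 1 (0.38), pool 2 (0.43) or pool 4 (0.36). Whether the ribosomal RNA share has a part in this was not tested.

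Fbl, the enzyme that methylates ribosomal RNA, had few counts under its own identifier. It had 11.5, 4.47, 3.83 and 6.64 CPM in vehicle and 6.03, 8.36, 6.70 and 4.30 CPM under NAM/PN, from 31 to 97 counts a library. The groups overlapped, 2 pools were higher and 2 lower, and the log2 fold change of -0.06 had a 95% interval of -1.73 to 1.61, from 0.301-fold to 3.06-fold.

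The low count of Fbl stood beside counts on a copy elsewhere in the genome. In GENCODE M21, 54.3% of the 50-base words in the last 300 bases of the Fbl transcripts occur unchanged in other genes, most of them in the processed pseudogene Gm5812, which held 3216 counts over the 8 libraries. The same share was 45.8% for Nop56, whose main copy is AC122861.1 with 1943 counts, and 9.94% for Npm1, whose main copy is Gm14681 with 16381 counts. It was 20.3% for Polr1b, 2.59% for Ncl, 0.373% for Nop58 and 0 for Dkc1, Gnl2, Gnl3 and Polr1a. The words of Polr1b lay in 17 other genes, most often in the protein-coding Plekha5 (1247 counts), and its 1 pseudogene copy held 0 counts. Genes that share words but are not pseudogenes were left out of the sums below. How the counting treated reads that fit several places is not given in the sources used here, so a gene and its copies were also counted together, a choice made after seeing the data.

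Summed with its pseudogene copies, Fbl had 46.7 ± 20.03 CPM in vehicle and 60.9 ± 29.0 CPM under NAM/PN (SD, n = 4), and 88.6% of these counts lay on the copies. The values were 69.7, 39.3, 23.1 and 54.5 CPM in vehicle and 37.2, 51.4, 51.8 and 103 CPM under NAM/PN, still overlapping, and the log2 fold change was 0.38 (SE 0.34, edgeR adjusted p = 0.859) in place of -0.06. It rested on NAM/PN replicate 4, which held 1058 counts on copies, and was 0.0012 without that library, 0.16 without vehicle replicate 3 and 0.63 without vehicle replicate 1. For Nop56, 19.3% of the summed counts lay on copies, and the log2 fold change was 0.33 (SE 0.23, adjusted p = 0.779), against 0.52 for the gene alone. That sum gave 0.61 without vehicle replicate 3 and 0.20 to 0.21 without vehicle replicate 1, vehicle replicate 2 or NAM/PN replicate 4. For Npm1, 28% lay on copies and the log2 fold change stayed near its first value, at 0.35 (SE 0.14, adjusted p = 0.381), with vehicle libraries at 998.5 to 1170 CPM and NAM/PN libraries at 1203 to 1527 CPM. With the replicate block the adjusted p of these 3 sums were 0.801, 0.674 and 0.479.

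**Figure D2:**
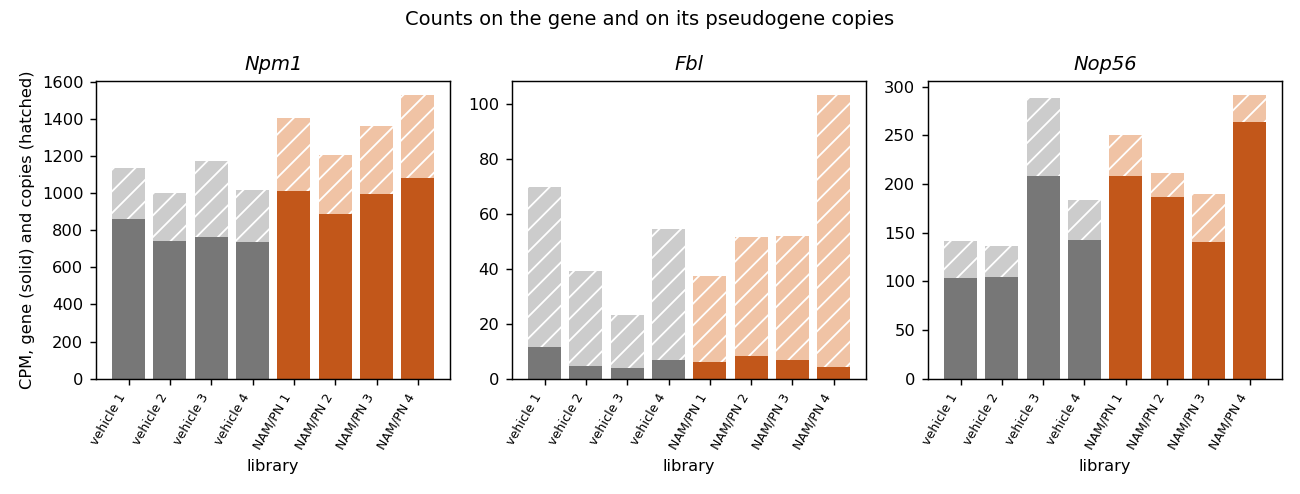
Level in CPM (vertical axis, from 0) in each of the 8 libraries (horizontal axis) for Npm1, Fbl and Nop56, with the counts on the gene solid and those on its pseudogene copies hatched, grey for vehicle and orange for NAM/PN. Most of the height of the Fbl bars is hatched, up to a total of 103 CPM in NAM/PN replicate 4.

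Dkc1, which pseudouridylates ribosomal RNA in H/ACA snoRNPs and also stabilises telomerase RNA, followed Nop56 from library to library. Its values were 467, 476, 772 and 574 CPM in vehicle and 722, 615, 581 and 637 CPM under NAM/PN. Again pools 1, 2 and 4 were higher with NAM/PN and pool 3 was lower, with vehicle replicate 3 the highest of the 8 libraries. The log2 fold change was 0.16 with a 95% interval of -0.20 to 0.52 (edgeR, adjusted p = 0.902), and it was 0.33 without vehicle replicate 3 (adjusted p = 0.451). It was 0.07 without vehicle replicate 1, 0.08 without vehicle replicate 2, 0.09 without NAM/PN replicate 1 and 0.0060 without pool 1. Across the 8 libraries, the log2 CPM of Nop56 and Dkc1 had a Pearson correlation of 0.863, and of 0.853 after the mean of each condition was taken out. These libraries share pools and depth, so this is a description only.

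Nucleolin (Ncl), an abundant RNA-binding protein that acts on the ribosomal RNA precursor, took 53.1% to 60.1% of all counts on the 10 genes. It had 4147, 3534, 4846 and 4162 CPM in vehicle and 4860, 4519, 5073 and 3995 CPM under NAM/PN, higher in 3 of 4 pools with overlapping groups. The log2 fold change was 0.14 (SE 0.13, edgeR adjusted p = 0.871), and its 95% interval of -0.13 to 0.42 reaches up to a 1.34-fold rise. The fitted value was 0.07 without vehicle replicate 2 and 0.22 without vehicle replicate 3. Its counts were 28486 to 42772 a library.

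Nucleophosmin (Npm1), a chaperone of the outer, granular layer of the nucleolus where subunits are assembled, was higher with NAM/PN in all 4 pools. It had 862, 741, 761 and 737 CPM in vehicle and 1013, 888, 993 and 1082 CPM under NAM/PN. No NAM/PN library fell to the level of a vehicle library, the nearest being 862 and 888 CPM, and the ratio within a pool ran from 1.18 to 1.47. The means of 775 ± 58.6 and 994 ± 80.5 CPM (SD, n = 4) differed by 0.36 on the log2 scale (SE 0.14, edgeR adjusted p = 0.360).

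Of the nucleolar GTPases, Gnl2 had groups that did not overlap and Gnl3 had groups that did. Gnl2, a GTPase that rides on the precursor of the large subunit before its export, had 146, 140, 156 and 161 CPM in vehicle and 223, 198, 194 and 195 CPM under NAM/PN. All NAM/PN libraries lay above all vehicle libraries, and the highest of them was NAM/PN replicate 1. The means were 151 ± 9.56 and 202 ± 14.0 CPM (SD, n = 4), the log2 fold change was 0.43 (SE 0.16), and it did not pass the adjustment (edgeR, adjusted p = 0.346).

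Gnl3, or nucleostemin, a related GTPase named for its abundance in stem cells, had 371, 254, 340 and 272 CPM in vehicle and 320, 329, 364 and 213 CPM under NAM/PN. The groups overlapped over most of their ranges, and 2 pools were higher and 2 lower. The log2 fold change was -0.01 with a 95% interval of -0.41 to 0.38 (edgeR, adjusted p = 0.995), which holds changes from 0.753-fold to 1.30-fold. Its sign turned with single libraries, at 0.13 without NAM/PN replicate 4, 0.083 without vehicle replicate 1 and -0.11 without NAM/PN replicate 3. Within each library, the log2 ratio of Gnl2 to Gnl3 was -1.02 ± 0.26 in vehicle and -0.57 ± 0.34 under NAM/PN (SD, n = 4), with values of -1.35 to -0.76 and -0.91 to -0.13 that overlapped, although the ratio was higher with NAM/PN in all 4 pools. That the difference of Gnl2 exceeds that of Gnl3 was not tested.

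Neither of the large catalytic subunits of RNA polymerase I differed beyond the spread between pools. Polr1a, the largest subunit, had 84.7, 81.6, 66.4 and 92.1 CPM in vehicle and 87.2, 115, 118 and 37.4 CPM under NAM/PN. NAM/PN replicate 4 held the lowest value of the 8 libraries while replicates 2 and 3 held the highest, and the log2 fold change was 0.14 with a 95% interval of -0.45 to 0.72 (edgeR, adjusted p = 0.967). It was 0.39 without NAM/PN replicate 4, -0.03 without NAM/PN replicate 3 and -0.0086 without NAM/PN replicate 2. Polr1b, which completes the active centre, had 36.1, 35.2, 19.8 and 13.3 CPM in vehicle and 21.4, 40.1, 22.1 and 19.1 CPM under NAM/PN, in overlapping groups. Its log2 fold change was -0.02 with an interval of -0.83 to 0.78 (adjusted p = 0.995), although 3 of 4 pools were higher with NAM/PN. The fitted value was 0.17 without vehicle replicate 1, 0.15 without vehicle replicate 2, -0.25 without vehicle replicate 4 and -0.32 without NAM/PN replicate 2. Vehicle libraries of Polr1b alone ranged from 13.3 to 36.1 CPM.

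**Figure D3:**
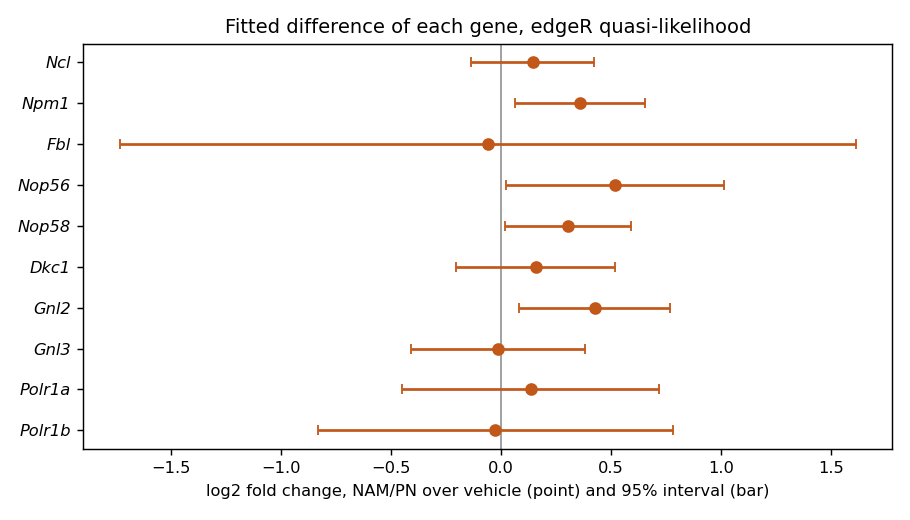
Fitted log2 fold change of NAM/PN over vehicle (point) with its 95% interval (bar, horizontal axis) for each gene (vertical axis), from edgeR's quasi-likelihood fit. The intervals of Npm1, Nop56, Nop58 and Gnl2 lie above 0 before adjustment, and that of Fbl, from -1.73 to 1.61, is the widest.

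Read by library instead of by gene, the summed level of the 10 genes was higher with NAM/PN in all 4 pools, and whether the groups overlapped depended on the scale. Their summed share of all counts in pools 1 to 4 was 0.721%, 0.644%, 0.735% and 0.689% for vehicle, against 0.863%, 0.806%, 0.875% and 0.793% for NAM/PN. Without Ncl, the remaining 9 took 0.282% to 0.308% in vehicle and 0.354% to 0.379% under NAM/PN. On both of these shares of all counts, ribosomal RNA included, the NAM/PN libraries were above the vehicle libraries. On the TMM-scaled level used elsewhere the sums of the 10 genes were 7248, 6284, 8059 and 7038 CPM for vehicle, against 8663, 8048, 8628 and 7524 CPM for NAM/PN. These overlapped, since vehicle replicate 3, with its large ribosomal RNA share, lay above NAM/PN replicates 2 and 4, and so did shares of counts without ribosomal RNA (0.726% to 0.932% and 0.843% to 0.994%). Within each of the 4 pools, the NAM/PN library was above its vehicle library on both of these scales as well. Without Ncl the TMM-scaled sums were 2750 to 3213 CPM and 3529 to 3803 CPM and did not overlap. Sums say nothing of each gene, since the fitted changes of Fbl, Gnl3 and Polr1b with all libraries were below 0. Those signs changed in some other fits. Counted gene by gene, 4, 2, 4 and 2 of the 10 genes were above their own mean over the 8 libraries in vehicle replicates 1 to 4, against 8, 10, 7 and 5 in NAM/PN replicates 1 to 4. NAM/PN replicate 4 was the least uniform of its group, with Npm1 and Nop56 at their highest and Polr1a and Gnl3 at their lowest there. It also had the lowest Pax7, at 97.3 CPM, and the lowest ribosomal RNA share, at 5.22%, and the part of either in these values was not tested.

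**Figure D4:**
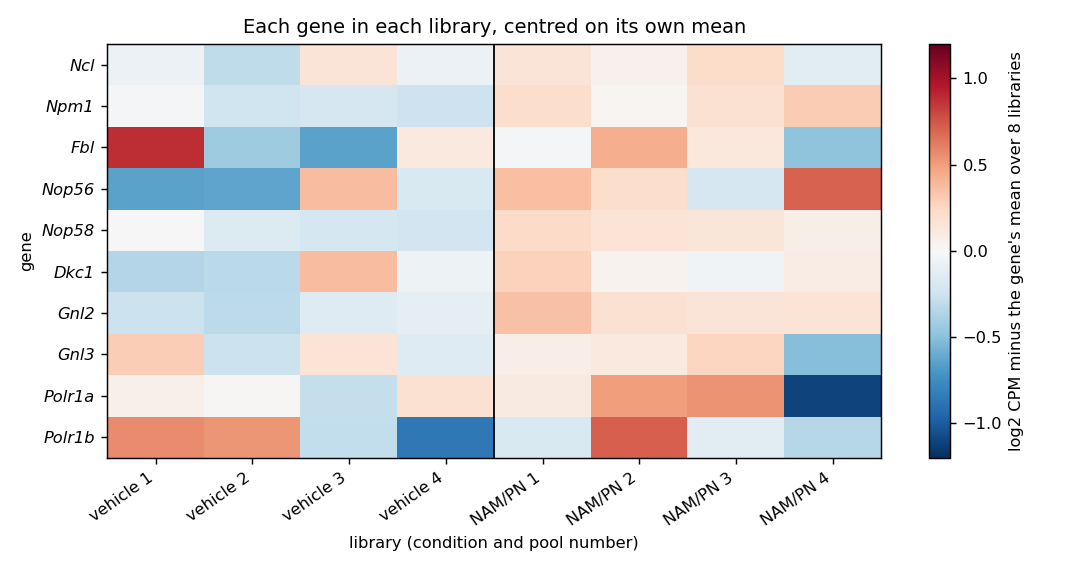
Log2 CPM of each gene (rows) in each library (columns, by condition and pool number) after subtraction of the gene's mean over the 8 libraries, from blue (lower) to red (higher). Vehicle replicate 3 is high for Nop56 and Dkc1, and NAM/PN replicate 4 is high for Nop56 and low for Polr1a.

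Among pairs of members, the closest in log2 CPM over the 8 libraries were Npm1 and Nop58 (Pearson r = 0.866), Nop56 and Dkc1 (r = 0.863), Nop58 and Gnl2 (r = 0.843) and Npm1 and Gnl2 (r = 0.805). After the mean of each condition was taken out, the first of these was 0.356 and the last 2 were -0.01 and -0.09, so little of the correlation of those pairs was left within conditions. Nop56 and Nop58, scaffold partners in the same particle, had a correlation of 0.341 over the 8 libraries and of -0.55 within conditions. Outside the 10 genes, the tested genes most like their mean profile were Hoxb2 (r = 0.947), Cd3eap (r = 0.937), Errfi1 (r = 0.920), Slc23a2 and Seh1l (both r = 0.910), and 8 genes had r above 0.9 over 8 libraries. Hoxb2 was at 0.740 and 3.44 CPM, close to the limit of detection, while Cd3eap, a subunit of RNA polymerase I, was at 119 and 155 CPM with vehicle and NAM/PN.

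The other protein genes of the nucleolus mostly lay above 0, as 7 of the 10 members did. Of 128 such genes in 7 lists, 126 were tested and 0 were called in either direction by edgeR. The fitted log2 fold change was above 0 for 93 and below 0 for 33, with a median of 0.15. Before adjustment, 10 were higher at p under 0.05 and 0 were lower, against 3.96% and 5.32% of all tested genes. Of the 126, 15 were higher in all 4 pools, beside 8.49% of all tested genes, and 2 had groups that did not overlap, all NAM/PN libraries being higher, beside 2.79%. No test was made of the lists as sets, and their genes are not independent of each other.

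By role, the remaining core proteins of the snoRNPs had a median log2 fold change of 0.35 over 5 tested genes, 4 of them above 0, while Fbll1 had 0 counts. The median was 0.23 without NAM/PN replicate 4, 0.19 without pool 4 and 0.45 without NAM/PN replicate 1. Rrp9, the protein particular to the U3 snoRNP, had 77.0 ± 20.8 CPM in vehicle and 113 ± 9.58 CPM under NAM/PN (SD, n = 4), a log2 fold change of 0.55 (edgeR, adjusted p = 0.354), and Snu13, which binds the kink-turn of box C/D snoRNAs, had -0.20. The 12 snoRNP assembly factors had a median of 0.22, from -0.33 for Pih1d1 to 0.65 for Naf1, which escorts dyskerin before Gar1 replaces it. That median was 0.04 without vehicle replicate 2 and 0.13 without vehicle replicate 4. The 10 other tested subunits of RNA polymerase I had a median of 0.25, with Polr1e at 0.80 (adjusted p = 0.537), Polr2e at 0.45 (adjusted p = 0.527) and Polr1c at -0.08. Of the 9 transcription factors of RNA polymerase I, 8 were above 0 with a list median of 0.20, which was 0.093 without NAM/PN replicate 3 and 0.0998 without vehicle replicate 2. The exception was Taf1c, a subunit of the selectivity factor SL1, at -1.28 from 13.1 ± 8.04 to 5.40 ± 3.56 CPM (adjusted p = 0.658), beside Taf1b of the same factor at 0.77 (adjusted p = 0.799).

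Factors that process and assemble the precursors also had medians above 0. The small subunit processome had 27 of 37 genes above 0 and a median of 0.16, from Mphosph10 at -0.26 to Imp4 at 0.51 (edgeR, adjusted p = 0.402). The large subunit assembly factors had 27 of 38 above 0 and a median of 0.12, from Surf6 at -0.41 to Tex10 at 0.72. That median was 0.071 without vehicle replicate 3 and 0.14 without vehicle replicate 1. Tex10, of the complex that clears precursors of the large subunit, had 40.9 ± 8.998 CPM in vehicle and 67.4 ± 14.8 CPM under NAM/PN (SD, n = 4), with no overlap between groups, and did not pass the adjustment (adjusted p = 0.259). Mdn1, the large ATPase that strips factors from the same precursors, was named after its values were seen. It had a log2 fold change of 0.54 (adjusted p = 0.497), and it was called without vehicle replicate 3 at 0.93 (adjusted p = 0.0132) and without pool 3 at 0.92 (adjusted p = 0.0418). Its log2 fold change was lower without vehicle replicate 4 (0.35, adjusted p = 0.861) or pool 4 (0.37). The 15 nucleolar RNA helicases had a median of 0.10, from Ddx55 at -0.50 to Ddx54 at 0.56, and the median was 0.023 without NAM/PN replicate 3, 0.035 without vehicle replicate 2 and -0.03 without pool 2. How the medians of the lists rank was not tested.

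**Figure D5:**
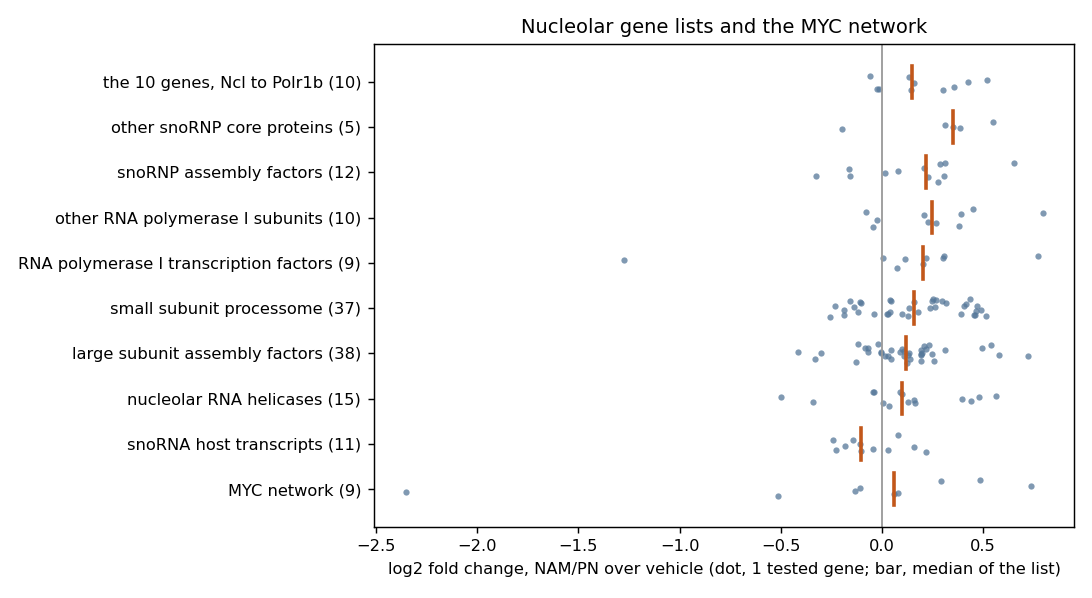
Log2 fold change of NAM/PN over vehicle (horizontal axis) of each tested gene (dots) in the 10 genes and in 9 further lists (rows, number of tested genes in brackets), with the list median as a bar. The medians of the 8 nucleolar protein rows lie between 0.10 and 0.35, and the lowest dot is Mycl at -2.36.

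Noncoding hosts of snoRNAs were mixed in direction. Of 11 matched host transcripts, which carry snoRNAs in their introns as Nop56 and Nop58 do, 4 were above 0 and 7 below, with a median of -0.10 and 0 called by edgeR. The median was 0.0039 without NAM/PN replicate 1 and 0.040 without vehicle replicate 4. Snhg8 had 191 ± 26.8 CPM in vehicle and 162 ± 17.0 CPM under NAM/PN (SD, n = 4), and Snhg1 had 207 ± 16.4 and 241 ± 32.8 CPM, log2 fold changes of -0.24 (adjusted p = 0.796) and 0.22 (adjusted p = 0.812).

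MYC proteins are known activators of many nucleolar genes, so their network was read beside them. Of 9 tested genes of the network, 5 were above 0 with a median of 0.06, and 1 was called. The median was below 0 without NAM/PN replicate 1 (-0.04), vehicle replicate 3 (-0.08), vehicle replicate 4 (-0.06) or pool 3 (-0.10). Mycl fell from 35.7 ± 11.1 to 7.01 ± 3.78 CPM (SD, n = 4), a log2 fold change of -2.36 with an SE of 0.45 (edgeR, adjusted p = 0.00883), lower in all 4 pools without overlap of the groups. The call was lost without vehicle replicate 1 (adjusted p = 0.0588), vehicle replicate 4 (0.0562), pool 1 (0.142), pool 2 (0.0845) or pool 4 (0.0682), with a log2 fold change of -2.45 to -2.003 in these 5 fits. Mnt, a repressor that pairs with MAX, was at 0.74 (adjusted p = 0.774). In the promoter windows of RefSeq (GRCm38.p6, 250 bases before to 50 after the start), which matched 7 of the 10 genes, the E-box CACGTG was found in 0 of 7, against 7.15% of 32851 windows of the same length, and CCAAT on either strand in 3 of 7 (Nop56, Polr1a and Dkc1), against 37.4%. These are matches of letters and not sites of binding.

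Ribosomal RNA itself, the product of RNA polymerase I, was measured only as carry-over into libraries primed on poly(A). Genes of the ribosomal RNA class, nearly all of it CT010467.1, took 9.09%, 9.23%, 18.7% and 9.59% of counts in vehicle and 11.6%, 10.3%, 10.2% and 5.22% under NAM/PN. The difference of -2.32 percentage points did not exceed the spread between libraries (two-sided exact permutation test over 70 assignments, p = 0.571), and it was 0.0288 without vehicle replicate 3. It is no measure of transcription by RNA polymerase I.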

How the data were processed

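Libraries were made from 30 ng of RNA by QuantSeq, a method that primes on poly(A) and sequences the 3′ ends of transcripts. The authors aligned the reads to GRCm38 with RNASTAR and deposited raw counts per gene from htseq-count, unfiltered and not normalized. The annotation release and the strand setting are not given in the sources used here. Symbols, biotypes and positions were taken from GENCODE M21, which held 55227 of the 55487 identifiers.

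NAM/PN was compared with vehicle over all 8 libraries by edgeR's quasi-likelihood test (R 4.3.3, edgeR 4.0.16) after filterByExpr (minimum count 10, minimum total 15) and TMM scaling, with Benjamini-Hochberg adjustment over the 12060 tested genes, a threshold of 0.05 and no block. The study's methods state this test for mouse muscles, and the test for cultured MuSCs is not given in the sources used here. Log2 CPM used a prior count of 2. The tests were tried on simulated data first. The labels use the same pool numbers in both conditions, which were read as the same mice and so as pairs. The correlation of deviations from the group means was only -0.03 to 0.03 within pools. P-values measure the spread between pools.

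The members and gene lists were chosen with earlier results of these data known. Named genes are the 10 members and, in each list, called genes, the smallest p and the largest rise and fall at an average log2 CPM of at least 3. The 5 genes closest to the mean profile of the members, Pax7, Myod1, Myog and the gene with the most counts were added. Myod1 was at 1366 ± 175 and 1201 ± 134 CPM (SD, n = 4) with vehicle and NAM/PN, and Myog fell from 929 ± 390 to 199 ± 74.3 CPM (edgeR adjusted p = 0.000232). Snhg4, Snhg7 and Snhg16 were not matched, and Polr2k, Mycn and Fbll1 did not pass the filter.

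Alternatives were the replicate block, DESeq2 1.42.0 (size factors, Wald test), limma 3.58.1 voomWithQualityWeights with duplicateCorrelation, no filter, a robust fit, thinning to the smallest library, removal of 356 ribosomal RNA genes, leaving out each library and each pool, and, chosen after seeing the data, summing copies. A copy is a pseudogene that shares an exact 50-base word with the last 300 bases of a member.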

Additional observations from a re-analysis of the deposited data

Results flagged for a closer look

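Among 68 groups of 4 libraries examined, 6 held a value far from the other 3, where chance gives about 1 in 20, or 3.4. NAM/PN replicate 1 was high for Gnl2, with 223 CPM where the remaining NAM/PN libraries held 194 to 198 CPM. For Polr1b the high library was NAM/PN replicate 2, at 40.1 CPM beside 19.1 to 22.1 CPM. Tex10 was low in vehicle replicate 2, at 27.5 CPM beside 44.5 to 47.1 CPM, on the side away from NAM/PN. Pax7 was low in NAM/PN replicate 4, at 97.3 CPM beside 196 to 200 CPM. Vehicle replicate 3 held 205000 CPM of CT010467.1, where the others held 90000 to 97900 CPM, and its ribosomal RNA share was 18.7%, beside 9.09% to 9.59%. Both of these flags rest on nearly the same counts, since CT010467.1 is nearly all of that share.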

How the results depend on the processing

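In all 21 alternatives, 0 of the 10 members were called, and Ncl, Npm1, Nop56, Nop58, Dkc1 and Gnl2 kept a log2 fold change above 0. The lowest adjusted p were 0.0552 for Nop56, 0.0886 for Npm1, 0.0940 for Nop58 and 0.162 for Gnl2. The replicate block gave 156 called genes in place of 154, log2 fold changes of 0.36 for Npm1 (adjusted p = 0.454), 0.55 for Nop56 and 0.43 for Gnl2, and changed no call of a member. Fbl, Gnl3, Polr1a and Polr1b changed sign in some alternatives. Fbl was at 0.036 with the block, 0.023 with voom, 0.10 after thinning and 0.38 with copies summed; Gnl3 was at 0.12 with voom; Polr1b was at 0.030 with the block and 0.20 with voom. When a library or pool was left out, the log2 fold change of Fbl ran from -0.37 to 0.37, of Gnl3 from -0.13 to 0.13, of Polr1a from -0.11 to 0.46 and of Polr1b from -0.32 to 0.25, and the median of the 10 genes from 0.090 to 0.29, the highest without pool 1. The members higher at an unadjusted p under 0.05 then numbered 0 to 5, with 0 without vehicle replicate 2 or pool 2, 1 without NAM/PN replicate 1, vehicle replicate 4 or pool 1, and 2 without NAM/PN replicate 2 or pool 4, and they numbered 2 with no filter on low counts. The log2 fold change of Ncl ran from 0.072 to 0.22, of Nop56 from 0.35 to 0.91 and of Dkc1 from 0.0060 to 0.38. Nop56 was at 0.33 with copies summed, below Gnl2 at 0.43. Leaving out a library or pool moved list medians to 0.19 to 0.45 for other snoRNP core proteins, 0.044 to 0.23 for assembly factors, 0.17 to 0.36 for RNA polymerase I subunits, 0.084 to 0.23 for its transcription factors, 0.10 to 0.22 for the small subunit processome, 0.071 to 0.14 for large subunit factors, -0.03 to 0.18 for helicases, -0.27 to 0.040 for noncoding hosts and -0.10 to 0.18 for the MYC network (-0.0088 with voom). The cause was not tested.

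Genes called over the whole table numbered 289 with DESeq2 (75 higher, 214 lower), 232 with voom (66 higher) and 366 with no filter (135 higher, 231 lower). Leaving out a library or pool gave 42 to 177 called genes (5 to 43 higher, 37 to 134 lower), with 92 without NAM/PN replicate 1, 80 without vehicle replicate 2, 87 without vehicle replicate 4, and 65, 42 and 94 without pools 1, 2 and 4. Among the large subunit assembly factors 1 gene was called with voom, and 0 or 1 when a library or pool was left out. This was Mdn1, at 0.87 with voom (adjusted p = 0.0130). The MYC network held 0 or 1 called gene, Mycl, as given with its values above. The ribosomal RNA difference ran from -3.18 to 0.0288 percentage points, the last without vehicle replicate 3. With 4 pools a group, the upper ends of the members' 95% intervals reach from 1.30-fold for Gnl3 to 3.06-fold for Fbl.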
